A study of Mus musculus with 6 samples.

Results

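The transcript levels of 43 genes that encode Myc, its partner Max and the machinery that builds ribosomes were examined in mouse natural killer (NK) cells. The genes were chosen by symbol, and all 43 were present, once each, among the 11717 genes of the deposited table. RNA had been sequenced from purified splenic NK cells of C57BL/6 mice in 6 libraries. The 3 cKO libraries (IL-15Tg-Xbp1s cKO) came from mice with an IL-15 transgene and a conditional knockout directed at Xbp1s, the spliced form of a transcription factor of the unfolded protein response. The 3 WT libraries (IL-15Tg WT) came from mice that carried the same IL-15 transgene, so both genotypes were exposed to it. The sources used here do not give the promoter of the transgene, the Cre line, the age of the mice or their number per library.

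Myc is a basic helix-loop-helix transcription factor that binds DNA as a dimer with Max and raises the transcription of genes for growth. Ribosome production is among its best known outputs. In the nucleolus RNA polymerase I transcribes the ribosomal RNA precursor, small nucleolar ribonucleoproteins (snoRNPs) modify it, and large sets of assembly factors fold and cut it into the small and the large subunit. In NK cells IL-15 signalling induces Myc, and nucleolar activity accompanies the blast growth that comes before division.

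On average these genes differed little between the genotypes, while the libraries within each genotype differed widely. No member was called higher or lower in cKO than in WT, and the median log2 fold change of cKO over WT over the 43 members was 0.045. In contrast, 42 of the 43 members (97.7%) had higher levels in cKO library 2 and WT library 1 than in all the other 4 libraries. The same held for 25.4% of all 11343 genes tested. The member that did not follow was Max. The main test did not pair libraries across the genotypes, so this division of the libraries entered its error. A member that was not called is therefore not shown to be unchanged.

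Levels are given in CPM, the reads of a gene scaled so that all listed genes of a library sum to 1000000. The libraries held 26297292 to 29366756 such reads, and the members held between 249 and 17814 reads per library. CPM does not allow for gene length, and comparisons between genes are therefore made per kilobase of exon. Xbp1, the targeted gene, was at 35.1, 33.4 and 39.7 CPM in cKO libraries 1, 2 and 3 and at 42.9, 61.4 and 63.5 CPM in WT libraries 1, 2 and 3. Its difference was not called over all genes (limma, adjusted p = 1.0). The 15 markers of NK cells were all present, with a summed level of 12818 to 13902 CPM in cKO and 13642 to 15425 CPM in WT libraries. Markers of B cells (15 of 15 present, 614 to 1556 CPM in cKO and 299 to 1021 CPM in WT libraries), T cells (10 of 10, 103 to 175 CPM and 87.5 to 177 CPM), macrophages and monocytes (6 of 12, 286 to 413 CPM and 261 to 325 CPM) and neutrophils (9 of 10, 114 to 155 CPM and 101 to 127 CPM) were found as well. On average 14 of the 15 NK cell markers were lower and 15 of the 15 B cell markers higher in cKO, with none called in limma. DESeq2 called 1 of them, the NK cell receptor gene Ncr1, at 975, 963 and 881 CPM in cKO and 1264, 1408 and 1242 CPM in WT libraries (DESeq2, adjusted p = 2.3e-06). The part of these cell types in the levels of the members was not tested. No marker that was listed stood at 0 in any library. In such a bulk sample, fewer cells of a type and less RNA per cell cannot be told apart.

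The letters that Myc and Max bind best, the E-box CACGTG, were looked up in the promoters of the members. RefSeq windows of 300 bases on GRCm38.p6, the mm10 build, running from 250 bases before to 50 bases after the start of a gene, were found for 35 members, and not for Bop1, Fbl, Gnl2, Myc, Npm1, Rrp12, Rrs1 and Srm. The motif reads the same on both strands. A window with CACGTG belonged to 9 of the 35 (25.7%), against 12.1% of the genes tested that had a window and 8.09% of all genes with a window. The 10 sites are shown 5′ to 3′ in the direction of the gene, with the motif in capitals, since they are the only stretches of these promoters that hold it. The first 4 lines are sites that begin upstream of the RefSeq start.
Max, chr12:76962234-76962263, minus strand: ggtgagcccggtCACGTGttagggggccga
Nme1, chr11:93968273-93968302, minus strand: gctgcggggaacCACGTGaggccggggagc
Nme1, at another start, chr11:93968037-93968066, minus strand: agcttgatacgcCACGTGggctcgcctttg
Nop2, chr6:125131811-125131840, plus strand: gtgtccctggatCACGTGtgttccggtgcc
Pes1, chr11:3963965-3963994, plus strand: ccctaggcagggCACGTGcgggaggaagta
Wdr43, chr17:71616220-71616249, plus strand: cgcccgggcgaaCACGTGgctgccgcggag
Tsr1, chr11:74898092-74898121, plus strand: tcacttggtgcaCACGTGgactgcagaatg
Ltv1, chr10:13193092-13193121, minus strand: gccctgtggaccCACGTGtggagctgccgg
Utp20, chr10:88826765-88826789, minus strand: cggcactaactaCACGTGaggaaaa
Mybbp1a, chr11:72441355-72441376, plus strand: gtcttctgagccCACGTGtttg
Counted from the RefSeq start, the site of Max began 3 bases before it and that of Nop2 60 bases before it. That of Mybbp1a began 41 bases after it. These starts can differ from those of GENCODE, and both Nme1 sites lie within the GENCODE gene. A match describes these letters and does not show binding. Members with and without the motif had a like spread between libraries. The highest cKO library was above the lowest by a median of 1.298-fold with the motif and 1.37-fold without it, and the highest WT library was above the lowest by 1.47-fold with it and 1.48-fold without it.

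Myc itself (plus strand of chromosome 15, 61985391 to 61990374, protein-coding) was at 91.9, 127 and 87.1 CPM in cKO libraries 1, 2 and 3 and at 124, 85.9 and 90.7 CPM in WT libraries 1, 2 and 3. The genotypes overlapped, and 1 library in each stood above the other 2. Its means were 102 ± 21.9 CPM in cKO and 100 ± 20.6 CPM in WT (SD, n = 3 each). The log2 fold change was 0.03 ± 0.19 (SE), with a 95% interval from -0.42 to 0.47, and was not called (limma, adjusted p = 1.0). By exact permutation, two-sided, p was 0.7, where 3 against 3 libraries cannot give less than 0.1. The interval reaches from a level 25.3% lower to one 38.9% higher in cKO. The sign of the estimate turned with single libraries, being negative without cKO library 2 (-0.14), WT library 2 (-0.07) or WT library 3 (-0.03). Leaving out 1 library changes the weight of the high library in that genotype, so such a turn is partly fixed beforehand. Without both high libraries, cKO library 2 and WT library 1, the estimate was 0.02.

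Max, the obligate dimer partner of Myc (minus strand of chromosome 12, 76937269 to 76962201), was the steadiest member. It was at 106, 106 and 103 CPM in cKO libraries and at 104, 107 and 109 CPM in WT libraries. All 6 libraries lay within a narrow range, with no library apart. The log2 fold change of -0.02 (95% interval -0.13 to 0.08) had the narrowest interval of the list and was not called (limma, adjusted p = 1.0).

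**Figure D1:**
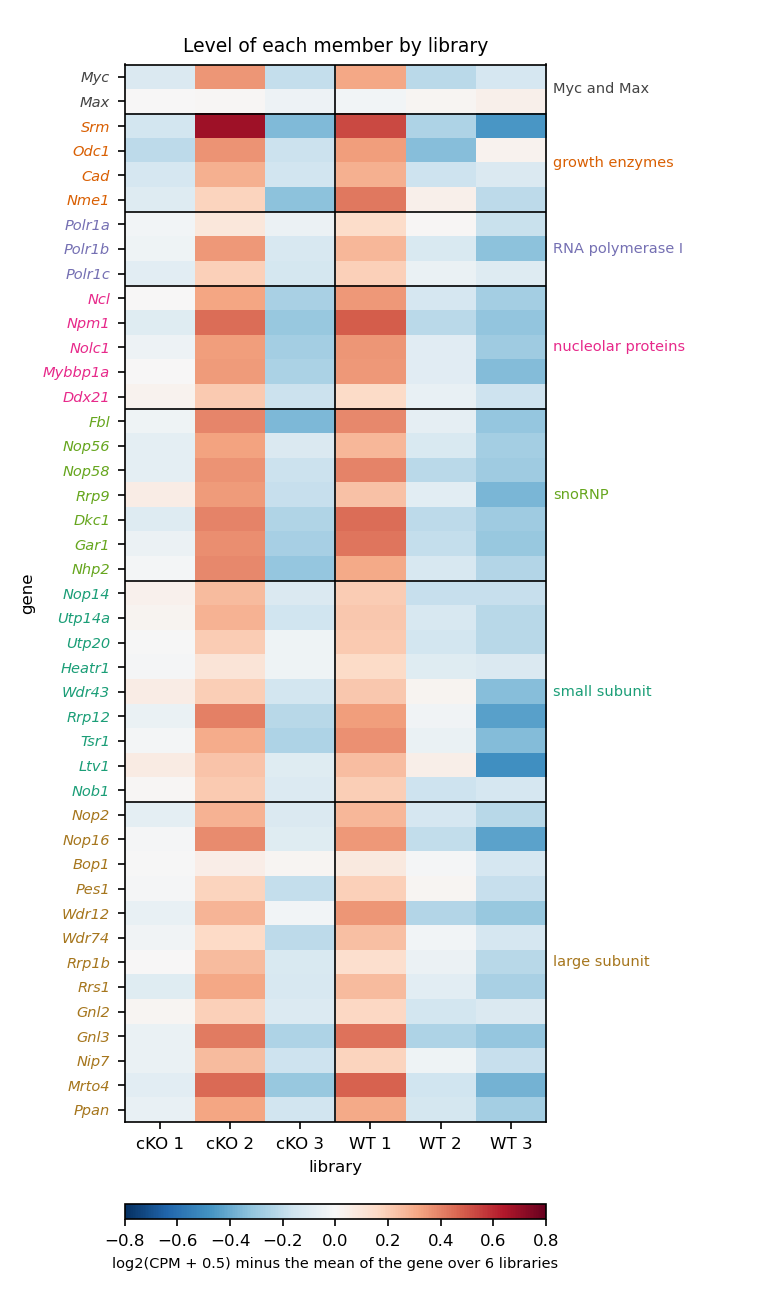
Level of the 43 members (rows, grouped by role) in 3 cKO and 3 WT libraries (columns), as log2(CPM + 0.5) minus the mean of the gene over the 6 libraries; red is above and blue below that mean. The 2 highest values of a row are in the columns of cKO library 2 and WT library 1 in 42 of 43 rows, Max being the exception.

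Enzymes of growth that are textbook targets of Myc followed the same division of the libraries. Srm, the spermidine synthase, was at 20.7, 37.1 and 17.8 CPM in cKO libraries 1, 2 and 3 and at 33.3, 19.3 and 16.5 CPM in WT libraries 1, 2 and 3. The highest cKO library exceeded the lowest 2.08-fold, and the highest WT library exceeded the lowest 2.02-fold, both the largest folds among the 43 members. Odc1, the ornithine decarboxylase that starts polyamine synthesis, was at 86.3, 128 and 88.7 CPM in cKO and at 126, 78.8 and 102 CPM in WT libraries. Cad, which carries out the first steps of pyrimidine synthesis, was at 127, 170 and 125 CPM in cKO and at 169, 124 and 129 CPM in WT libraries, with a mean of 141 CPM in each genotype (SD 25.4 in cKO and 24.9 in WT, n = 3 each). Each of these enzymes had its highest cKO level in library 2 and its highest WT level in library 1.

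Nme1, a nucleoside diphosphate kinase, had the smallest p of all members. It was at 23.9, 29.1 and 20.3 CPM in cKO and at 34.6, 26.4 and 22.1 CPM in WT libraries. The log2 fold change of -0.17 (95% interval -0.63 to 0.29) did not exceed the variation of the libraries (limma, unadjusted p = 0.406, adjusted p = 1.0). Nme1 shares exons with the annotated gene Gm20390 on the same strand, so the assignment of its reads is uncertain. The median over the 4 enzymes was -0.009, with 1 higher and 3 lower in cKO.

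RNA polymerase I was represented by its catalytic core and 1 shared subunit. Polr1b, the second largest subunit, was at 48.1, 62.7 and 45.0 CPM in cKO and at 59.2, 45.2 and 39.1 CPM in WT libraries, a log2 fold change of 0.12 (95% interval -0.31 to 0.56). Polr1c, which is shared with RNA polymerase III, was at 28.0, 34.1 and 26.9 CPM in cKO and at 34.0, 28.7 and 27.7 CPM in WT libraries, a log2 fold change of -0.02 (95% interval -0.31 to 0.26). Polr1a, the largest subunit, was at 79.5, 85.7 and 77.9 CPM in cKO and 89.2, 81.1 and 71.3 CPM in WT libraries. Neither genotype stood above the other for any of the 3, and their median log2 fold change was 0.01.

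The abundant nucleolar proteins gave the highest levels. Per kilobase of exon, Npm1 (nucleophosmin) came first among the members, at 144 CPM per kb in cKO and 142 CPM per kb in WT. It was followed by Ncl (nucleolin) at 50.8 and 49.6, the helicase gene Ddx21 at 43.7 and 42.3, and Myc at 37.6 and 36.9 CPM per kb in cKO and WT. Npm1 was at 347, 507 and 301 CPM in cKO libraries 1, 2 and 3 and at 520, 320 and 299 CPM in WT libraries 1, 2 and 3. Ncl was at 506, 626 and 420 CPM in cKO and at 642, 458 and 417 CPM in WT libraries. In both genes the 2 high libraries lay within a few percent of each other, and they came from different genotypes.

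Mybbp1a, a nucleolar regulator of ribosomal RNA transcription and processing, was at 163, 207 and 137 CPM in cKO and at 208, 153 and 128 CPM in WT libraries. Ddx21, which unwinds RNA at the polymerase and in snoRNPs, was at 226, 256 and 197 CPM in cKO and at 246, 213 and 197 CPM in WT libraries. Their log2 fold changes were 0.06 (95% interval -0.44 to 0.56) and 0.05 (95% interval -0.24 to 0.33). All 5 nucleolar proteins, Nolc1 included, were slightly higher in cKO on average, their median log2 fold change being 0.04, and none was called (limma, adjusted p = 1.0 each). With cKO library 2 left out the median was -0.11, and with WT library 1, 2 or 3 left out it was 0.22, -0.02 or -0.099. With cKO library 2 and WT library 1 both left out it was 0.063.

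**Figure D2:**
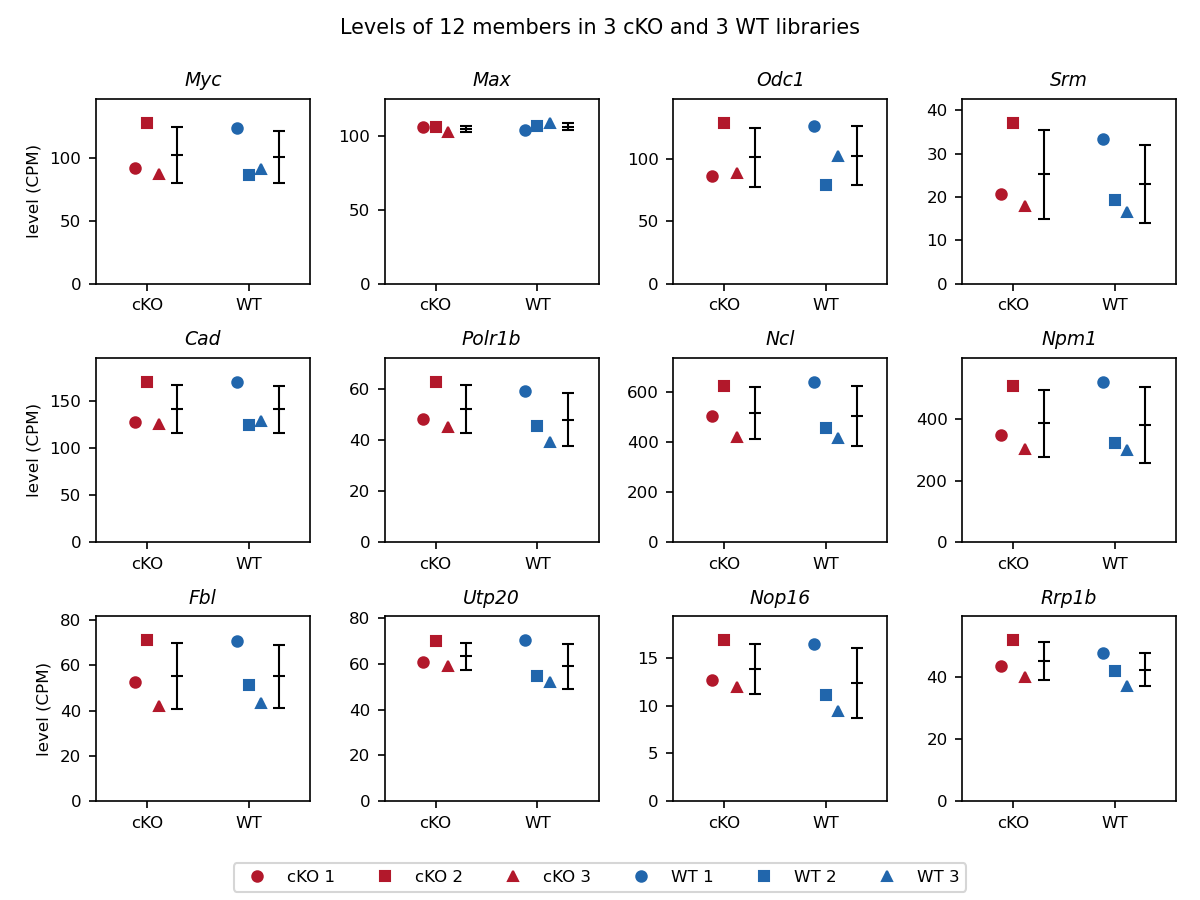
Levels in CPM (vertical axes, from 0) of 12 members in the 3 cKO (red) and 3 WT (blue) libraries; symbols give the library number, and the black bars to the right of each group are the mean ± SD (n = 3). Max lies between 103 and 109 CPM in all libraries, while in the other 11 genes cKO library 2 and WT library 1 lie above the rest.

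The snoRNP proteins showed the same division of the libraries. Fbl (fibrillarin), the methyltransferase of box C/D snoRNPs, was at 52.7, 71.0 and 41.9 CPM in cKO and at 70.5, 51.3 and 43.5 CPM in WT libraries, with a log2 fold change of 0.00 (-0.0011, 95% interval -0.56 to 0.56). Nop56, a core protein of the same particles, was at 117, 155 and 114 CPM in cKO and at 149, 114 and 102 CPM in WT libraries. Rrp9, a protein of the U3 snoRNP, was at 27.1, 32.9 and 22.8 CPM in cKO and at 30.7, 24.5 and 20.0 CPM in WT libraries. The log2 fold changes of Nop56 and Rrp9 were 0.08 (95% interval -0.32 to 0.49) and 0.14 (95% interval -0.31 to 0.59). Box C/D core protein Nop58 and the box H/ACA proteins Dkc1 (the pseudouridine synthase), Gar1 and Nhp2 had log2 fold changes between 0.04 and 0.07. Over the 7 genes, 6 were higher and 1 lower in cKO, with a median of 0.04. The genes of 9 members, Ncl, Nop56 and Nop58 among them, contain annotated snoRNA genes on the same strand, and the exons of 17 members overlap a gene on the other strand, so that the assignment of some reads is uncertain.

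For the small subunit, all 9 assembly factors had a positive log2 fold change, between 0.02 and 0.13, with a median of 0.09. Leaving out cKO library 2 gave a median of -0.0082, leaving out WT library 3 gave -0.0071, and leaving out WT library 1 gave 0.22. Leaving out both cKO library 2 and WT library 1 gave 0.11. Utp20, a large scaffold of the early precursor, was at 60.6, 69.9 and 59.2 CPM in cKO and at 70.3, 54.7 and 51.9 CPM in WT libraries. Its log2 fold change was 0.11 (95% interval -0.19 to 0.41). Nop14, another protein of the precursor, was at 44.1, 51.4 and 39.5 CPM in cKO and at 49.5, 37.7 and 37.7 CPM in WT libraries, a log2 fold change of 0.11 (95% interval -0.22 to 0.45). In both genes WT library 1 lay above cKO libraries 1 and 3, and neither was called (limma, adjusted p = 1.0 each). Heatr1, which is needed for transcription as well as processing of the precursor, spread little, by 1.10-fold in cKO and 1.20-fold in WT between the highest and the lowest library. The late factors Tsr1, Ltv1 and Nob1, the last being the nuclease that cuts the mature end of the small subunit RNA, had log2 fold changes of 0.02, 0.13 and 0.07. The values of the remaining factors Utp14a, Wdr43 and Rrp12 were 0.09, 0.07 and 0.09.

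Among the 13 large subunit factors, 11 were higher and 2 lower in cKO (median log2 fold change 0.06). Nop16 had the largest estimate of the whole list. It was at 12.8, 16.9 and 12.04 CPM in cKO and at 16.5, 11.2 and 9.47 CPM in WT libraries, a log2 fold change of 0.18 (95% interval -0.36 to 0.72), not called (limma, adjusted p = 1.0). Rrp1b, a nucleolar paralogue of the assembly factor Rrp1, was at 43.6, 51.8 and 39.9 CPM in cKO and at 47.8, 42.0 and 37.2 CPM in WT libraries, a log2 fold change of 0.09 (95% interval -0.21 to 0.39). Bop1, Pes1 and Wdr12 form 1 complex of large subunit assembly but differed in spread. The highest cKO library exceeded the lowest 1.04-fold for Bop1, 1.298-fold for Pes1 and 1.26-fold for Wdr12, and the highest WT library exceeded the lowest 1.16-fold, 1.298-fold and 1.59-fold in the same order. Mrto4, a stalk assembly factor with 2 annotated pseudogenes, had the widest spread of this group, at 1.70-fold in cKO and 1.82-fold in WT, and the nucleolar GTPase Gnl3 (nucleostemin) spread 1.59-fold in cKO and 1.68-fold in WT. Nop2, Rrs1, Gnl2, Nip7 and Ppan had log2 fold changes between 0.03 and 0.07, and those of Wdr74 and Pes1, the 2 lower ones, were -0.05 and -0.02.

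Over the whole list, 35 members were higher and 8 lower in cKO on average (81.4% higher, against 55.5% of all genes tested). This count moved with single libraries, to 7 higher without cKO library 2 and 8 higher without WT library 3. It rose to 41 higher without cKO library 3 or WT library 1. Since cKO library 2 and WT library 1 were high in 42 members, leaving out 1 library shifts the mean of its genotype by construction. With both of them left out, 35 were higher and 8 lower again. Log2 fold changes ran from -0.17 for Nme1 to 0.18 for Nop16. The median over all genes tested was 0.0087. Members called in limma numbered 0 at an adjusted p under 0.05 (0% of all genes tested, in each direction) and 0 at an unadjusted p under 0.05 (1.17% of all genes tested). The edgeR and DESeq2 tests on the recovered reads also called 0 members (of all genes tested, 0% in edgeR and 0.0529% in DESeq2), and each listed 0 members at an unadjusted p under 0.05 (1.28% and 1.37% of all genes tested). In 0 of the 43 members did all 3 cKO libraries lie on 1 side of all 3 WT libraries, which was so for 4.32% of all genes tested (2.55% higher and 1.77% lower in cKO). For 42 members this overlap was fixed by cKO library 2 and WT library 1 both lying above the other 4 libraries. The count therefore adds nothing to that pattern. All 43 intervals excluded a 2-fold difference in either direction, and 31 of the 43 excluded a 1.5-fold difference. The standard error was larger than is usual in these libraries, with a median of 0.18 over the members and 0.096 over all genes tested. The division of the libraries was part of this error, since genotype was the single term of the fit.

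**Figure D3:**
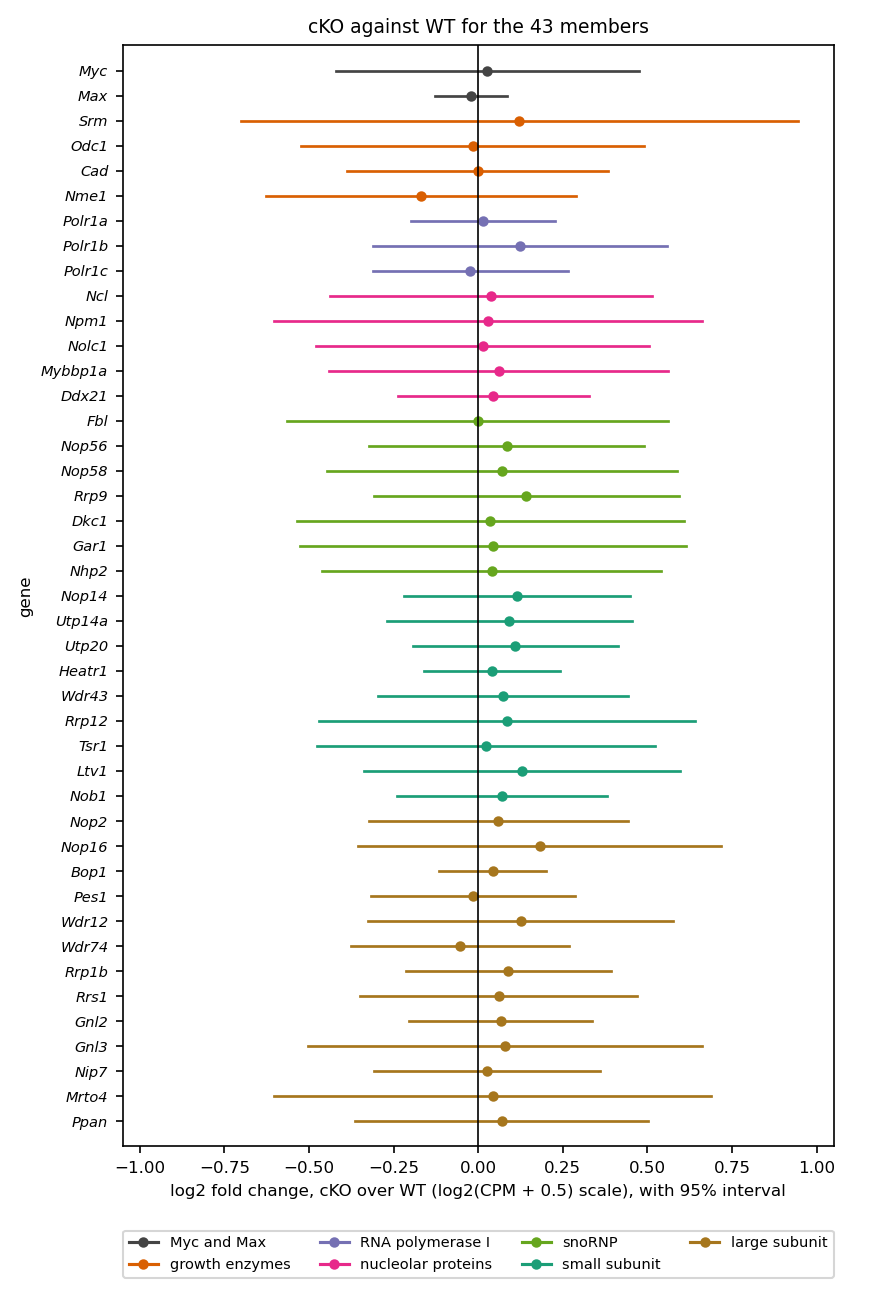
Log2 fold change of cKO over WT for each of the 43 members (points) with its 95% interval (lines), from limma on log2(CPM + 0.5), coloured by role. Every interval includes 0, and the estimates lie between -0.17 (Nme1) and 0.18 (Nop16).

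The spread within a genotype was examined next. For the median member, the highest and the lowest library differed by 0.44 (log2) in cKO and 0.56 in WT, against 0.21 and 0.22 for the median of all genes tested. The highest cKO level was in library 2 for all 43 members, and the highest WT level was in library 1 for 42. Between those 2 libraries there was no common order, with 23 members higher in cKO library 2 and 20 higher in WT library 1. The lowest cKO level was in library 3 for 40 members and the lowest WT level in library 3 for 37. The summed level of the 43 genes was 3254, 4105 and 2927 CPM in cKO libraries 1, 2 and 3 and 4116, 3066 and 2846 CPM in WT libraries 1, 2 and 3.

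Markers of cycling cells were divided in the same way. All 15 of 15 had higher levels in cKO library 2 and WT library 1 than in the other 4 libraries, and their summed level was 918, 1337 and 924 CPM in cKO and 1438, 972 and 909 CPM in WT libraries. Mki67, a protein of proliferating nuclei, was at 237, 370 and 266 CPM in cKO and at 388, 262 and 257 CPM in WT libraries. Erythroid markers, of which 8 of 10 were listed and none was at 0, followed too. Their summed level was 198, 420 and 158 CPM in cKO and 444, 148 and 132 CPM in WT libraries, and all 6 that were tested had the 2 highest levels in these 2 libraries. The erythroid transcription factor Klf1 was at 14.95, 39.5 and 12.8 CPM in cKO and at 40.9, 12.2 and 12.6 CPM in WT libraries. NK cell markers did not follow, with 0 of 15, nor did B cell or T cell markers, with 0 of 15 and 0 of 10. Reads on Gm26917, a gene on a ribosomal RNA repeat, were highest in the same libraries, at 55177, 60336 and 54115 CPM in cKO and 58587, 51595 and 46512 CPM in WT. What part cycling cells, erythroid cells or ribosomal RNA reads had in the levels of the members was not tested.

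**Figure D4:**
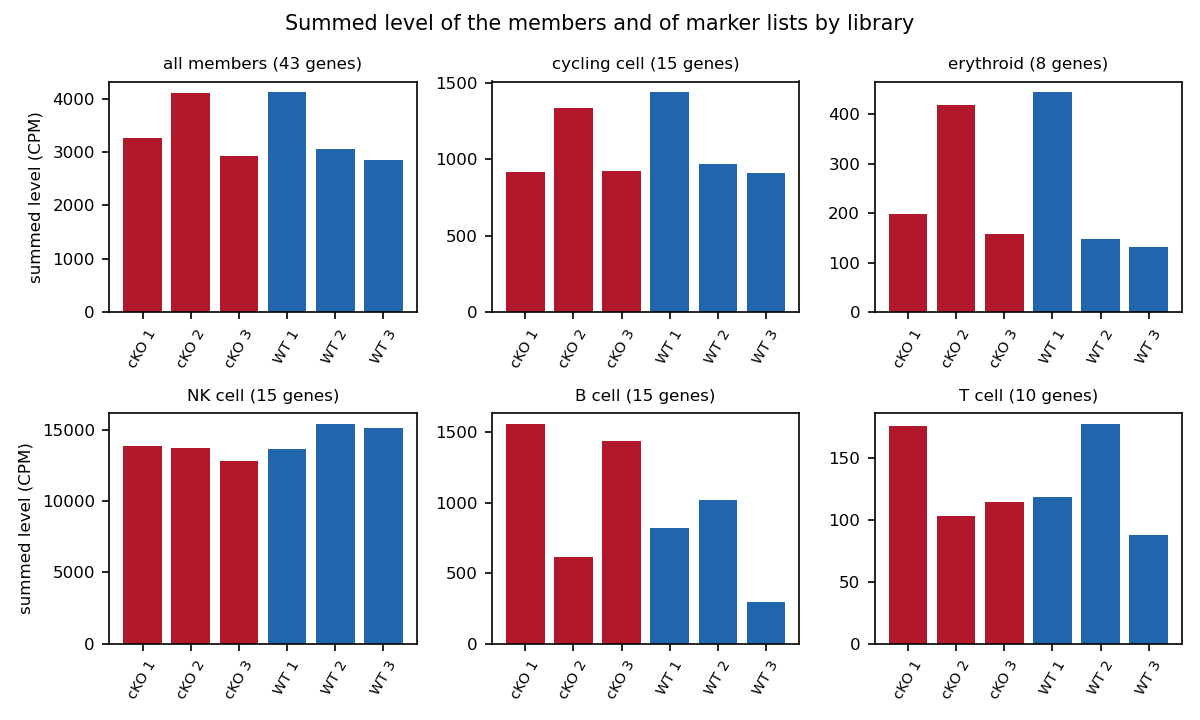
Summed level in CPM (vertical axes, from 0) of the 43 members and of 5 marker lists in the 3 cKO (red) and 3 WT (blue) libraries. The bars of the members, of cycling cells and of erythroid cells are tallest in cKO library 2 and WT library 1, while those of B cells are tallest in cKO libraries 1 and 3.

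With both of these libraries left out, the remaining 2 cKO and 2 WT libraries again gave 35 members higher and 8 lower (56.0% of all genes higher), and a median log2 fold change of 0.077 (0.012 over all genes tested). These libraries were chosen for omission after seeing the data. Nothing was called (limma, smallest adjusted p = 0.9996 over the members). Unadjusted p-values under 0.05 were found for 2 members (4.65%), as for 4.12% of all genes, in the same limma fit. Wdr12 had a log2 fold change of 0.23 (limma, unadjusted p = 0.0248, adjusted p = 0.9996) and Utp20 of 0.17 (limma, unadjusted p = 0.0402, adjusted p = 0.9996). All cKO libraries lay above all WT libraries for 11 members (25.6%, against 19.0% of all genes) and below them for 1, Max (2.33%, against 11.3% of all genes).

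Other genes of the same pathways were counted in lists chosen by function. Of 52 further small subunit factors, 31 were higher and 21 lower in cKO (median log2 fold change 0.014), and of 49 further large subunit factors 39 were higher and 10 lower, with a median of 0.024. For RNA polymerase I machinery the counts were 5 higher and 7 lower of 12 (median -0.0006), for snoRNP assembly 6 and 4 of 10 (0.026), and for polyamine and nucleotide synthesis 18 and 9 of 27 (0.038). None of these genes was called, and none had an unadjusted p under 0.05 in limma. Polr1e, a polymerase I subunit, was at 20.4, 20.8 and 18.8 CPM in cKO and at 18.3, 16.9 and 17.6 CPM in WT libraries. Tcof1 (treacle), a cofactor of ribosomal DNA transcription, was at 138, 137 and 132 CPM in cKO and at 131.5, 131 and 121 CPM in WT libraries. These 2 were the only genes of the 6 lists whose genotypes did not overlap, both higher in cKO. The lists held 12 polymerase I, 10 snoRNP, 52 small subunit, 49 large subunit, 27 synthesis and 10 Myc network genes. Of all genes tested, 4.32% did not overlap, 2.55% being higher in cKO. The log2 fold changes of Polr1e and Tcof1 were 0.18 (95% interval -0.01 to 0.37) and 0.09 (95% interval -0.03 to 0.21).

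Taf1d, a subunit of the polymerase I selectivity factor, was at 169 ± 14.1 CPM in cKO and 155 ± 15.4 CPM in WT, and the snoRNP assembly factor gene Znhit3 at 7.81 ± 1.11 CPM in cKO and 6.995 ± 0.913 CPM in WT (SD, n = 3 each). Utp25 was at 33.0 ± 1.12 CPM in cKO and 30.4 ± 3.10 CPM in WT, and Dimt1, a ribosomal RNA dimethyltransferase, at 9.84 ± 0.592 CPM in cKO and 10.7 ± 0.957 CPM in WT. The large subunit genes Mdn1 and Nmd3, an export adaptor, were at 174 ± 19.8 and 34.2 ± 2.84 CPM in cKO and at 161 ± 6.22 and 31.7 ± 2.68 CPM in WT (SD, n = 3 each). Impdh1, of guanine nucleotide synthesis, was at 62.5 ± 3.58 CPM in cKO and 69.4 ± 5.58 CPM in WT, and Shmt1, of one-carbon metabolism, at 6.64 ± 0.853 CPM in cKO and 5.68 ± 1.27 CPM in WT. The genotypes overlapped in each of these genes, and none was called (limma, adjusted p = 1.0 each).

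The division of the libraries was found in 36 of the 52 other small subunit factors, 28 of the 49 other large subunit factors, 20 of the 27 genes of polyamine and nucleotide synthesis, 9 of the 10 of snoRNP assembly and 6 of the 12 of polymerase I. It was found in 25.4% of all genes tested and in 0 of the 10 other genes of the Myc network. Those 10 were 5 higher and 5 lower in cKO (median 0.011). Mycn, a paralogue of Myc, was low at 6.10, 8.08 and 7.54 CPM in cKO and 5.49, 5.14 and 6.50 CPM in WT libraries, a log2 fold change of 0.31 (95% interval -0.04 to 0.67) that was not called (limma, adjusted p = 1.0). Zbtb17, which encodes the Myc partner Miz-1, was at 28.4 ± 2.28 CPM in cKO and 27.0 ± 0.533 CPM in WT (SD, n = 3 each). Mxd1 and Mxd4 encode repressors that compete with Myc for Max, and are named here after their values were seen. Mxd1 was at 187, 177 and 209 CPM in cKO and at 180, 190 and 225 CPM in WT libraries. Mxd4 was at 319, 288 and 328 CPM in cKO and at 289, 320 and 347 CPM in WT libraries. Both had their lowest cKO level in library 2 and their lowest WT level in library 1. Mycn instead had its highest cKO level in library 2, and Zbtb17 its lowest cKO level in library 1. The share of all genes with the pattern of Mxd1 and Mxd4 was not counted. The levels of the remaining genes of the Myc network list are not given here.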

How the data were processed

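Libraries were made with the KAPA Hyper Prep kit and read once over 50 bp on a HiSeq2500, per the labels. HISAT2, HTSeq, DESeq2 and mm10 are named, without versions, in the submitters' processing notes. The sources used here give neither the strand setting of the counting nor how the listed genes were chosen. The deposited values carry the name RPKM, but they are CPM: every column sums to 1000000, and the step of 1 read is the same whatever the length of the gene. All values (100%) came out as whole reads within 0.01 reads. The planned design assumed RPKM, and its log-scale test was kept. Exon lengths are the deposited ones, and gene coordinates are from GENCODE M21, matched by identifier for all 43 members.

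The main test was limma 3.58.1 (R 4.3.3) on log2(CPM + 0.5), with trended variance, genotype as the single term and Benjamini-Hochberg adjustment at 0.05. It covered the 11343 genes that reached 1 CPM in 3 or more of the libraries. Fold changes are on that scale, which understates low genes. The tests were also run on simulated reads, with outcomes not given here. Recovered reads were tested with edgeR 4.0.16 and DESeq2 1.42.0. Other alternatives changed the pseudocount, filter, scaling or library totals, added a replicate block or left out libraries.

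The members and lists were chosen with earlier results of these data known. The rule for values per library takes Myc, Max, the 2 members of smallest p in each role group and any member past the threshold or without overlap. All other members named in the text were added after their values were seen. In each list of other genes the 2 of smallest p are named. Marker lists were those of NK, B, T, cycling, erythroid and neutrophil cells and of macrophages and monocytes. No 2 libraries were alike within sampling noise. The lowest chi-square over its degrees of freedom was 4.78, between cKO library 2 and WT library 1. The next were 7.26, between cKO library 1 and WT library 2, and 14.7, between cKO library 3 and WT library 3. Pairs of the same genotype gave 16.4 to 42.4. The labels do not say whether the libraries of a genotype stem from different mice, so the p-values refer only to the variation among these samples, part or all of it perhaps technical.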

Additional observations from a re-analysis of the deposited data

How the results depend on the processing

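Under the 17 alternatives no member was called in either direction, and the smallest adjusted p of a member was 0.991. Over all genes, DESeq2 called 3 higher and 3 lower in cKO, against 0 and 0 in limma, edgeR and the other alternatives. The cause was not tested. The members' median log2 fold change of 0.045 ranged from 0.032 to 0.077 under the settings that kept all libraries or left out 2, and from -0.093 to 0.21 when single libraries were left out. The count of members higher in cKO was 32 to 37 with all libraries or without both, and 7 to 41 when single libraries were left out.

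The sign turned for several genes when 1 library was left out, none of them called. Leaving out 1 library changes the weight of cKO library 2 or WT library 1 in the mean of its genotype. Part of the ranges below is therefore fixed by the high levels in these 2 libraries. Myc ranged from -0.14 to 0.19, Srm from -0.19 to 0.42, Polr1b from -0.018 to 0.29, Polr1c from -0.13 to 0.065, Ddx21 from -0.048 to 0.14, Mybbp1a from -0.099 to 0.25, Rrp9 from -0.0046 to 0.30, Nop56 from -0.056 to 0.24 and Rrp1b from -0.015 to 0.18. The medians of all 7 role groups were below 0 without cKO library 2 (-0.19 for growth enzymes to -0.0082 for the small subunit) and without WT library 3 (-0.099 for nucleolar proteins to -0.0071 for the small subunit), and above 0 without WT library 1 (0.075 for Myc and Max to 0.27 for snoRNPs). With cKO library 2 and WT library 1 both left out, the medians ran from -0.02 for growth enzymes to 0.11 for the small subunit. Over all members, 6 kept their sign whichever library was left out. Those were Max and Nme1, lower in cKO, and Nop14, Nop16, Utp20 and Wdr12, higher in cKO. Xbp1 stayed lower throughout.

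The replicate numbers of the titles did not pair the samples. Deviations from the group means of same-numbered libraries correlated across genes at -0.17, -0.51 and 0.48, and cKO library 1 went best with WT library 2 (0.65) and cKO library 2 with WT library 1 (0.59), so that only the libraries numbered 3 went best with their own number. The labels give no batch that would tie libraries across the genotypes, and whether one exists was not tested. With the replicate number as a block, 0 members and 0 genes were called, the log2 fold change of Myc was 0.026 and that of Xbp1 -0.61. With 1 library per genotype for each number, such a block cannot change a fold change. Since these numbers did not pair the samples, the block does not test the effect of pairing. With 3 libraries per genotype, the 95% intervals reached a median of 0.43 (log2) to each side for the members and 0.23 for all genes tested.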
